A study of Mus musculus with 26 samples.

Results

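Naive mouse embryonic stem cells (ESCs) are held in self-renewal by a group of factors that are turned off when the epiblast moves on towards the primed state. Of this group, 8 genes outside the Klf family were chosen by name: *Esrrb*, *Tcfcp2l1*, *Tbx3*, *Zfp42*, *Nr0b1*, *Prdm14*, *Nr5a2*, and *Tcl1*. Values were found for 6 of the 8, each as 1 gene of the 15646 in the expression table and as 1 baited fragment of the 19022 in the interaction lists. *Zfp42*, which encodes the zinc finger protein REX1, and *Prdm14*, a repressor of differentiation and DNA methylation genes, were not analysed here. They had no expression value and no fragment named for them in the interaction lists. A baited fragment without any listed contact would not appear in these lists.

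The 6 genes have different roles. *Esrrb* and *Nr5a2* encode orphan nuclear receptors that bind DNA as monomers, and ESRRB works with NANOG and OCT4 at many ESC enhancers. *Nr0b1* encodes DAX1, an unusual nuclear receptor without the classical DNA-binding domain that binds and restrains other nuclear receptors, NR5A2 among them. *Tcfcp2l1*, named *Tfcp2l1* in the annotation, encodes a CP2-family transcription factor and is a direct target of LIF and STAT3 signaling. *Tbx3* encodes a T-box factor that sustains naive ESCs and is also used later in limb, heart, and extraembryonic endoderm. *Tcl1* is no transcription factor but a coactivator of the kinase AKT. Naive ESCs correspond to the inner cell mass of the blastocyst, and epiblast-derived stem cells (EpiSCs) to the later, primed epiblast.

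Expression and promoter interactions were compared in 3 pluripotent states. Wild-type (WT) ESCs and *Nanog*-/- ESCs were both grown in serum with LIF on gelatin, and EpiSCs were grown on fibronectin in serum-free N2B27 medium with Activin A and bFGF. The labels give the strain as C57BL/6 for all of them, whereas the growth protocols name the E14Tg2a line for WT ESCs, the E14Tg2a-derived line RCNβH-B(t), a single line with both *Nanog* alleles deleted, for *Nanog*-/- ESCs, and a 129S2 embryo for EpiSCs. Pluripotent state, medium, and line changed together between ESCs and EpiSCs, and cannot be told apart. RNA-seq covered 10 samples (3 WT ESC, 4 EpiSC, and 3 *Nanog*-/- ESC), for which the authors deposited 1 median RPKM per state (reads per kilobase of gene, scaled to the mapped reads). Promoter Capture Hi-C (PCHi-C), in which ligated pairs of HindIII restriction fragments are enriched for those that hold a promoter, was sequenced in 12 lanes (5, 2, and 5 in the same order), and the authors combined 2 biological replicates per state into 1 list. No value therefore has a replicate error and no comparison below has a test. Intervals cover counting error only.

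The check of the labels was the deleted gene: *Nanog* stood at 418 RPKM in WT ESCs, 22.3 in the knockout, and 361 as deposited for EpiSCs, and no gene had a larger decrease in *Nanog*-/- ESCs. Because the median gene had 1.89 times its WT ESC value in EpiSCs (9077 genes at 1 RPKM or more in both), EpiSC RPKM was divided by this ratio, and differences are given as log2(RPKM + 1) of the scaled EpiSC value minus WT ESCs. The median ratio for *Nanog*-/- ESCs was 1.05, and these values were left as deposited. Markers of other cell types differed between the states. The 6 primitive endoderm markers summed to 4.59 RPKM in WT ESCs, to 23.2 (scaled) in EpiSCs, and to 76.1 in *Nanog*-/- ESCs, with 4 of 6 at least 2-fold higher in EpiSCs and 6 of 6 in *Nanog*-/- ESCs. The 5 fibroblast markers summed to 45.5, 213, and 56.6 RPKM in the same order, with 4 of 5 higher in scaled EpiSCs and 5 of 5 as deposited. None of these 11 markers was listed at 0 in any state. The 4 trophoblast markers in the table summed to 2.91, 3.19, and 7.96 RPKM, and none of 5 markers of 2-cell-like cells was in the table. The part of such cells in the results was not tested. Fewer cells of a kind and less RNA per cell cannot be told apart in bulk samples.

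The *Esrrb* promoter, the *Tcl1* promoter, and 1 distal fragment are shown because they are the sequences to which later results refer. The promoters are the RefSeq bases before the start of transcription (GRCm38.p6), written in the direction of transcription, with matches to searched motifs in capitals. *Esrrb* lies on the forward strand of chr12:86360867-86361116, and *Tcl1* on the reverse strand of chr12:105222794-105222987, from which 56 bases that overlap an annotated exon were left out. The third sequence is a partner of the *Tcfcp2l1* promoter, the fragment chr1:119083456-119083621 between *Gli2* and *Inhbb* (GRCm38, forward strand), in which the capitals mark what HindIII leaves of its site at either end.
Esrrb: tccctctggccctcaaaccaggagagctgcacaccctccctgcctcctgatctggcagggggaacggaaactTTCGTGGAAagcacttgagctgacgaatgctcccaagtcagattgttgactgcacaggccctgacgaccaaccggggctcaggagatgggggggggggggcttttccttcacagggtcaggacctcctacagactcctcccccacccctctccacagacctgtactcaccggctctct
Tcl1: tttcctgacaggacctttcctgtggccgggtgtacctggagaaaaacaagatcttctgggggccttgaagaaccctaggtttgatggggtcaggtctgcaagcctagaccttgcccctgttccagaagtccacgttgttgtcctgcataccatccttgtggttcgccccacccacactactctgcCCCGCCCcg
Partner fragment: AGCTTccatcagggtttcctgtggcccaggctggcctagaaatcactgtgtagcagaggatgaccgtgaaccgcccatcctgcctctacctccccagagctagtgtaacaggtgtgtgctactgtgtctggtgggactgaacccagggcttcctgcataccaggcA

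In the 250 bases before 7 RefSeq starts of 5 of the genes, 5 motifs were searched on both strands: AAGGTCA, the site of estrogen-related and NR5A receptors; TTCNNNGAA, that of STAT factors; TGCAAAT, the octamer core; GGGCGGG, bound by KLF and SP factors; and CACGTG, the E-box. *Esrrb* held 1 STAT-type match that began 178 bases before the start in its baited fragment, a motif found in 7.02% of 32851 promoters of the same length. Its second RefSeq promoter held no match to any of the 5 motifs. *Tcl1* held 1 KLF and SP match, 65 bases before its start and on the opposite strand, a motif found in 23.4% of promoters. *Tcfcp2l1*, *Nr0b1*, and *Nr5a2* held none of the 5, and the shares of all promoters with the other motifs were 4.08% (AAGGTCA), 3.56% (TGCAAAT), and 6.02% (CACGTG). A match is a description of letters, and says nothing of binding. The *Tbx3* promoter sequence was not searched.

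All 6 genes had at least 14.9 RPKM in WT ESCs, and at most 2.63 RPKM as deposited in EpiSCs. *Esrrb* was the highest in WT ESCs, at 210.4 RPKM, followed by *Nr0b1* at 126, *Tcl1* at 96.2, and *Tcfcp2l1* at 82.5, with *Nr5a2* at 26.4 and *Tbx3* at 14.9 well below. All 6 were at least 2-fold lower in EpiSCs, where 14.1% of the 10728 genes past the filter (at least 1 RPKM in at least 1 state) were lower by that much. All 6 were also at least 4-fold lower, against 5.70% of genes. None was higher, where 15.2% of genes were higher by 2-fold and 4.06% by 4-fold. All 6 passed the filter by their ESC level, and *Tcfcp2l1* (1.39 RPKM scaled) also by its EpiSC level. The genes were also chosen as naive factors, with earlier results of these data known. The direction is thus partly set by the filter and the choice, and is given as a description. The median difference of the 6 was −5.86 on the log2 scale, against 0.00 over all genes.

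**Figure D1:**
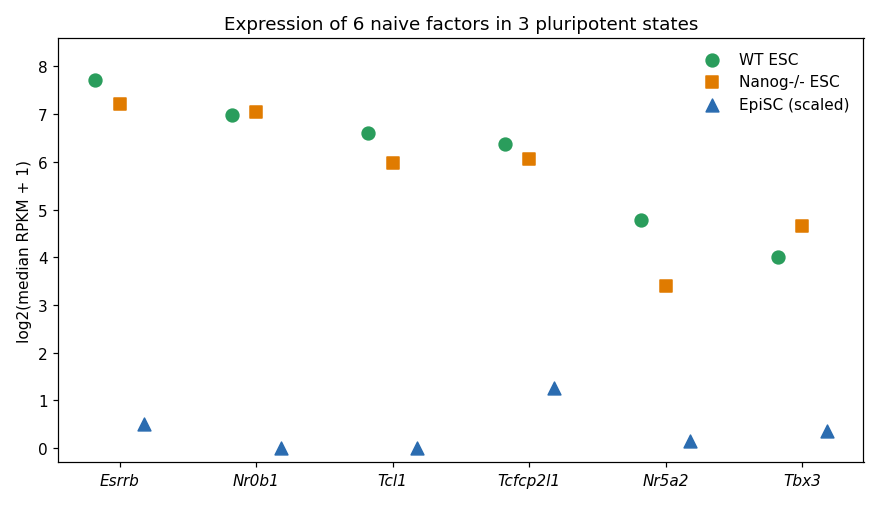
Median RPKM of the 6 genes on the log2(RPKM + 1) scale (vertical axis) in WT ESCs (green circles), Nanog-/- ESCs (orange squares), and EpiSCs (blue triangles, scaled by the median ratio). Each point is 1 deposited median, so there are no error bars. The EpiSC points lie at 1.26 or lower, and all ESC points at 3.40 or higher.

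*Esrrb* stood at 210.4 RPKM in WT ESCs and at 0.775 in EpiSCs as deposited, or 0.411 after scaling. This was a 512-fold difference (272-fold without scaling) and a log2 difference of −7.23, which ranked 15 among the decreases of all genes. *Tcfcp2l1*, at 82.5 and 2.63 RPKM (1.39 scaled), had the highest EpiSC level of the 6 and a 59.1-fold difference. *Nr5a2* went from 26.4 to 0.186 RPKM (0.0985 scaled), a 268-fold difference, and *Tbx3* from 14.9 to 0.526 (0.279 scaled), a 53.5-fold difference. On the log2(RPKM + 1) scale, which understates changes of low genes, these were −5.12 for *Tcfcp2l1*, −4.64 for *Nr5a2*, and −3.64 for *Tbx3*. Without a spread between samples, the order of neighbours within a state is given as listed.

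*Nr0b1* and *Tcl1* were listed at exactly 0 in EpiSCs, so no fold change is given. Of 2025 genes with at least 50 RPKM in WT ESCs, 13 (0.642%) were listed at 0 in EpiSCs. Of these, 4 were annotated as pseudogenes and 7 as protein-coding, namely *Nr0b1*, *Tcl1*, *Triml1*, *Triml2*, *Fam25c*, *Gm10358*, and *Rbmxl2*. *Triml1* and *Triml2* are neighbours of *Zfp42* on chromosome 8, and stood at 52.6 and 112 RPKM in WT ESCs. None of the 13 was at 0 in *Nanog*-/- ESCs.

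In *Nanog*-/- ESCs the same genes ranged from 36.3% of their WT ESC level (*Nr5a2*) to 161% (*Tbx3*). *Nr5a2* was the only 1 of the 6 past 2-fold, at 9.59 RPKM against 26.4, a 2.75-fold lower value (log2 difference −1.37), where 1.98% of genes were lower by 2-fold. *Tbx3* lay on the other side, at 24.1 RPKM against 14.9, or 1.61-fold higher (0.65), short of the 2-fold limit that 2.46% of genes passed upwards. The remaining values were 147 RPKM for *Esrrb* (70.1% of WT ESCs), 66.3 for *Tcfcp2l1* (80.4%), 61.7 for *Tcl1* (64.2%), and 131 for *Nr0b1* (104%). The median difference of the 6 was −0.41, against 0.07 over all genes, and none of the 6 was 4-fold lower or higher, as 0.214% and 0.289% of genes were. *Nr5a2* ranked 90 among the decreases of all genes. The order of levels was that of WT ESCs except that *Tcfcp2l1* stood above *Tcl1* and *Tbx3* above *Nr5a2*.

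**Figure D2:**
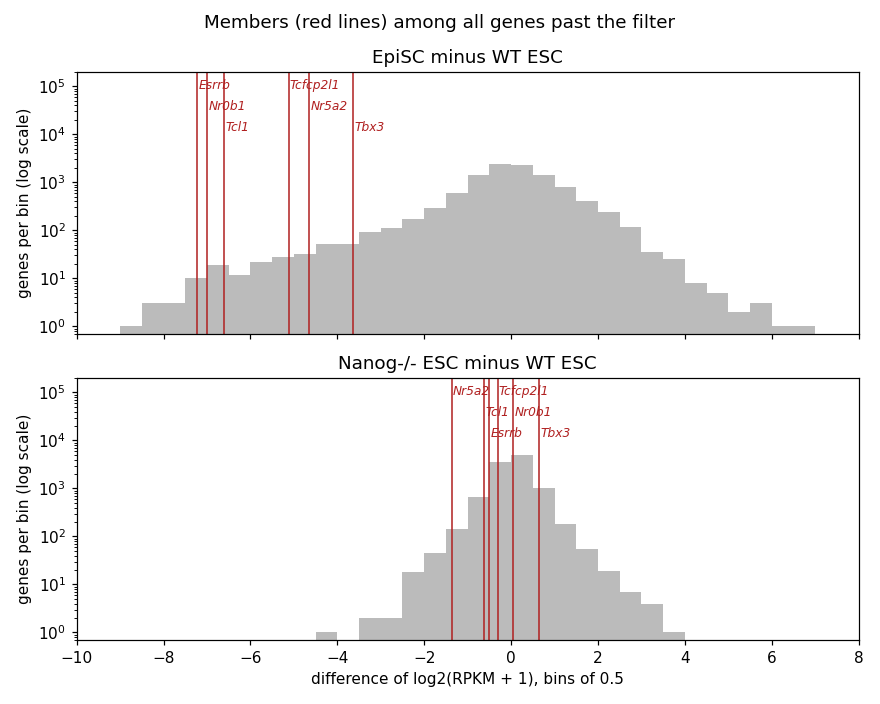
Differences in log2(RPKM + 1) from WT ESCs (horizontal axis, bins of 0.5) for the 10728 genes past the filter, with the number of genes per bin on a log scale (grey) and the 6 genes as red lines. In EpiSCs (top) the red lines lie between −7.23 and −3.64, in the left tail, and in Nanog-/- ESCs (bottom) between −1.37 and 0.65, mostly within the bulk.

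Other genes of the naive network, from a list of 10 that holds the Klf factors and *Nanog*, were also lower in EpiSCs. All 9 with values passed 2-fold after scaling, and 8 of 9 as deposited, where *Nanog* did not. The median log2 difference was −3.80, among them *Klf2* (302 RPKM in WT ESCs, 2.95 in scaled EpiSCs) and *Dppa5a* (4144 and 0.626). Of the 9, 3 were lower in *Nanog*-/- ESCs, *Nanog* itself, *Dppa3* (−2.37), and *Klf4* (−1.52), and 1 was higher, *Gbx2* (1.75). Of 10 genes listed as shared by both pluripotent states, 6 were lower in EpiSCs (median −1.28). *Utf1*, *Tdgf1*, and *Trim28* lost the call with EpiSC RPKM as deposited, which left 3 of 10, *Sox2*, *Dppa2*, and *Dppa4*. *Dppa2* (−6.13) and *Dppa4* (−6.54) stood at 0.444 and 0.795 RPKM in scaled EpiSCs, so the shared label did not hold for their RNA here. *Pou5f1*, which encodes OCT4, stood at 1159 RPKM in WT ESCs and in EpiSCs at 754 after scaling or 1422 as deposited, so its direction turned on the scaling. None of these 10 passed 2-fold in *Nanog*-/- ESCs. Of 12 primed genes, 5 were higher in EpiSCs, such as *Fgf5* (4.74 and 116 RPKM) and *T* (3.37 and 236), and 1 was lower, *Lefty2*. The knockout had 5 of the 12 lower, *Fgf5*, *Zic2*, *Zic5*, *T*, and *Cer1*, and none higher. Of these, *Fgf5*, *T*, and *Cer1* (1.42 RPKM) were already low in WT ESCs. Over all genes, 1.98% were lower and 2.46% higher by 2-fold in *Nanog*-/- ESCs, and 14.1% and 15.2% in scaled EpiSCs. As deposited, 7 of the 12 were higher in EpiSCs, with *Pou3f1* and *Zic2* added. The median of all genes was then 0.85 on the log2 scale.

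Over the 3 states, each member was also set beside the gene with the nearest expression profile, measured as the Euclidean distance over 3 values of log2(RPKM + 1) among 10728 genes. *Tbx3* was nearest to *Ddx4*, a germ cell RNA helicase (15.0, 0.0864, and 22.8 RPKM in WT ESCs, scaled EpiSCs, and *Nanog*-/- ESCs; distance 0.25). *Nr5a2* was nearest to *1700029P11Rik* (25.2, 0.0508, and 12.1 RPKM; distance 0.32). *Esrrb* and *Nr0b1* were nearest to the processed pseudogenes *Gm10288* (distance 0.33) and *Gm10359* (0.12), whose reads can be shared with a parent gene. *Tcfcp2l1* was nearest to *Gm8759* (0.30) and *Tcl1* to *Gm10071* (0.37), neither with an annotation match. With 3 points per gene, such a likeness describes the profile only.

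The promoters of the 6 genes differed widely in how many interactions they had. Each interaction, or contact, is a pair of HindIII fragments that the CHiCAGO caller gave a score of at least 5, a score that weighs the reads against the background for that distance. A contact missing from a list was not listed at that score, which does not make it absent. The 6 baited fragments, each of which holds an annotated start of its gene, had 31 contacts in the WT ESC list and 26 in each of the others. Their summed reads were 485, 294, and 490 in the order WT ESCs, EpiSCs, and *Nanog*-/- ESCs. Without contacts within 20 kb, of which *Nanog*-/- ESCs had 6 with 305 reads, the sums were 455, 294, and 185. The 3 lists as a whole hold 100492, 87369, and 74931 pairs, and the median bait had 3, 3, and 2 contacts.

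*Esrrb* had the most, with 13, 12, and 12 contacts (WT ESC, EpiSC, and *Nanog*-/- ESC lists). *Tbx3* followed in ESCs, with 9 and 6, and had 3 in EpiSCs. *Tcfcp2l1* had 3, 3, and 4 (21.6% of baits had more in *Nanog*-/- ESCs than in WT ESCs), and *Tcl1* 3 in each list. *Nr5a2* had 1, 5, and 1, and *Nr0b1* 2 in WT ESCs and none in the other lists. In WT ESCs, 15.1% of baits had as many contacts as *Esrrb* or more, and 24.2% as many as *Tbx3* or more. All shares and medians of baits cover only those named in a list, so captured promoters without any listed contact are left out. The *Esrrb* promoter had about as many contacts in EpiSCs, where its scaled RPKM was 0.195% of that in WT ESCs, and the *Nr5a2* promoter had more contacts in EpiSCs, where its RPKM was lowest. More contacts in EpiSCs than in WT ESCs were found at 33.5% of all baits.

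**Figure D3:**
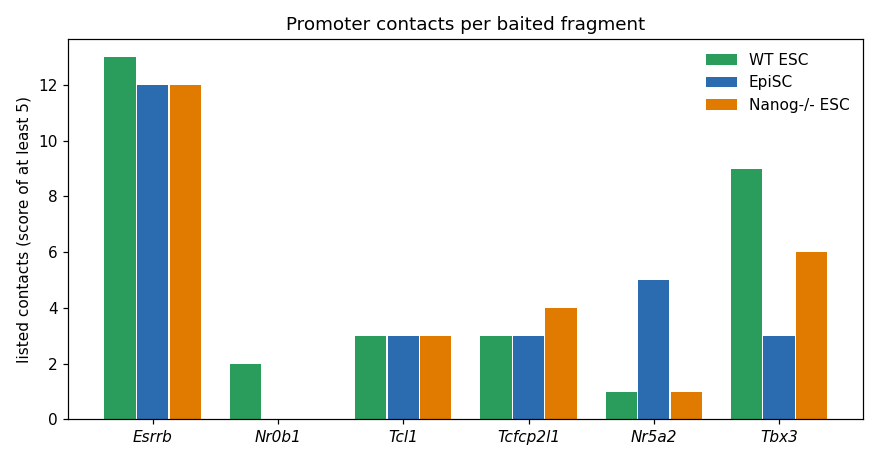
Number of listed contacts (vertical axis, score of at least 5) of the baited fragment of each gene in WT ESCs (green), EpiSCs (blue), and Nanog-/- ESCs (orange). Esrrb has 12 or 13 in each list, Tbx3 goes from 9 in WT ESCs to 3 in EpiSCs, Nr5a2 from 1 to 5, and Nr0b1 has bars in WT ESCs only.

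Of the 31 WT ESC contacts, 11 were also listed in EpiSCs (35.5%, Wilson 95% interval 21.1 to 53.1), against 39.6% of all WT ESC contacts. In *Nanog*-/- ESCs, 13 of 31 were listed (41.9%, 26.4 to 59.2), against 41.8%. Both shares were thus near the background. The genes differed among themselves. *Esrrb* had 9 of 13 contacts in EpiSCs and 5 of 13 in *Nanog*-/- ESCs, whereas *Tbx3* had 1 of 9 and 5 of 9. *Tcl1* had 0 of 3 and 2 of 3, *Tcfcp2l1* 1 of 3 in either list, and *Nr0b1* and *Nr5a2* none. When a partner in a touching fragment was also taken as the same, the shares were 51.6% in EpiSCs and 61.3% in *Nanog*-/- ESCs, against 53.6% and 54.7% of all WT ESC contacts. Contacts of 1 bait to neighbouring fragments share their source and are not independent.

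Contacts with high scores lay further from the background in EpiSCs, and near it in *Nanog*-/- ESCs. Of the 14 WT ESC contacts with a score of at least 7, 4 were listed in EpiSCs (28.6%, 11.7 to 54.6), against 57.8% of all such contacts, and 8 in *Nanog*-/- ESCs (57.1%, 32.6 to 78.6), against 60.4%. Of these 14, 8 belong to *Tbx3*, 5 to *Esrrb*, and 1 to *Tcfcp2l1*, and in EpiSCs 1 of the 8 *Tbx3* contacts and 3 of the other 6 were listed. Most of the 8 *Tbx3* contacts span over 500 kb, several at neighbouring fragments, and the background is not matched for distance. At any score, 46.9% of all WT ESC contacts under 100 kb were listed in EpiSCs, and 24.6% of those from 500 kb to 1 Mb.

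**Figure D4:**
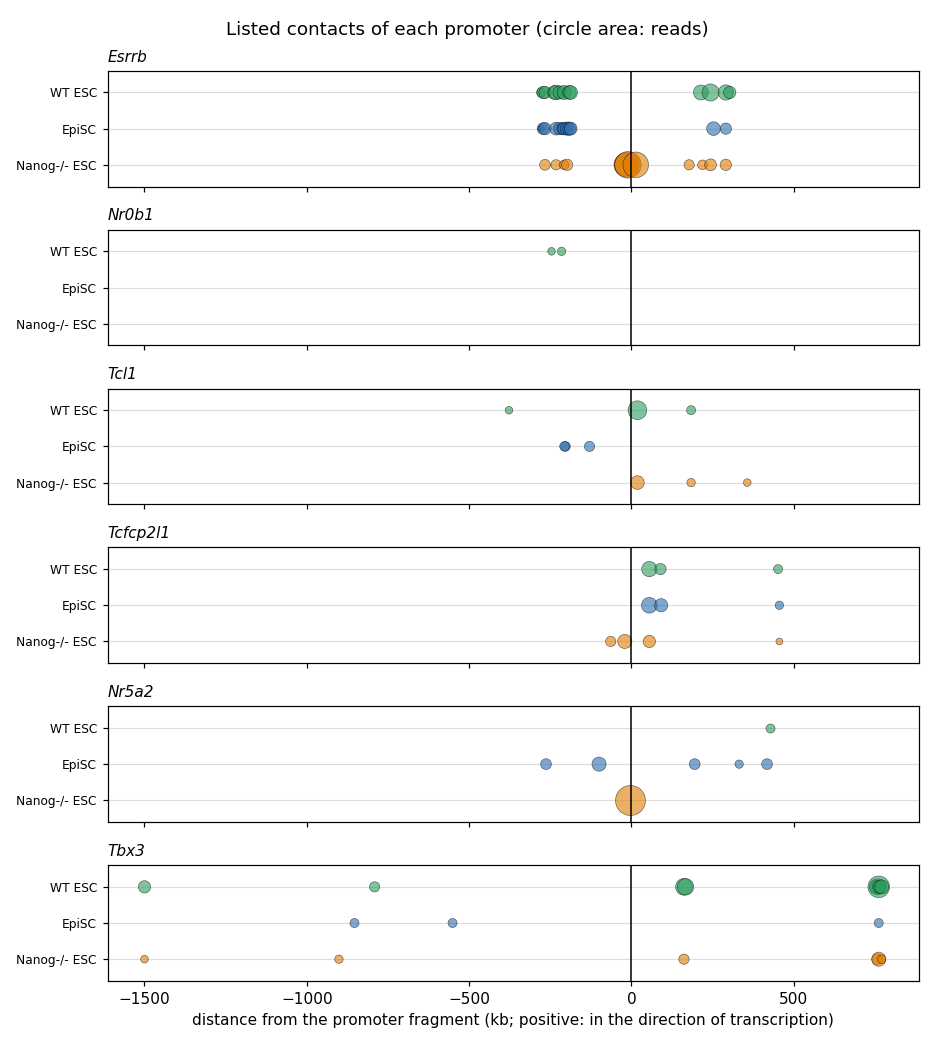
Position of every listed contact relative to the baited promoter fragment of each gene (horizontal axis, kb between fragment midpoints, positive in the direction of transcription) in the 3 lists (rows), with circle area proportional to reads. The circles of Esrrb fall into an upstream and a downstream group at about the same distances in all lists, the group of Tbx3 circles near 762 kb is smaller in EpiSCs, and circles within 20 kb of Esrrb and Nr5a2 are seen in Nanog-/- ESCs.

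In WT ESCs, the *Tbx3* promoter (chr5:119669457-119673921) had the contacts of highest score among the 6, most of them over 500 kb. Its strongest partner was the baited fragment of *Lhx5*, a LIM homeobox gene of the developing forebrain, which holds an *Lhx5* exon, at chr5:120431324-120435891, 762 kb downstream. This contact had 40 reads (exact Poisson 95% interval 28.6 to 54.5) and a score of 39.05 in WT ESCs, 7 reads (2.81 to 14.4) and 10.6 in EpiSCs, and 17 reads (9.90 to 27.2) and 25.97 in *Nanog*-/- ESCs. On raw reads, the WT ESC interval lay above those of EpiSCs and *Nanog*-/- ESCs, which overlapped. These intervals are not adjusted for depth, and most shared pairs had fewer reads in *Nanog*-/- ESCs (median ratio to WT ESCs 0.621). Whether the intervals separate at equal depth was not tested. Of 5189 WT ESC contacts over 500 kb, 9 (0.173%) had a score this high, and their median was 6 reads and a score of 6.26.

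The fall in reads at this pair was large next to other pairs. Over the 39765 pairs listed in both WT ESCs and EpiSCs, the median ratio of EpiSC to WT ESC reads was 0.833 (quartiles 0.691 and 1.00), and that of *Tbx3* and *Lhx5*, 0.175, was the lowest of all (0.00251% at or under it). Only pairs still listed in EpiSCs enter this ranking, and a pair with fewer WT ESC reads and a lower score could leave the list at such a ratio. In *Nanog*-/- ESCs the ratio was 0.425, against a median of 0.621 over 41986 pairs, with 5.53% at or under it. This pair was picked out after its values were seen. At 11 shared pairs of the members, the EpiSC ratio ranged from 0.175 to 1.05 (median 0.867), and 5 of the 11 were under the median of all pairs. At 13 pairs shared with *Nanog*-/- ESCs it ranged from 0.353 to 0.857 (median 0.480), and 10 of the 13 were under the median of all pairs. Some of these pairs join the *Tbx3* promoter to neighbouring fragments and are not independent, and the medians of all pairs are not matched for distance.

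In WT ESCs the *Tbx3* promoter also contacted 4 neighbours of the *Lhx5* promoter fragment, at 755, 758, 764, and 771 kb, with 16, 22, 15, and 17 reads and scores of 13.62 to 23.85. Of these 4, *Nanog*-/- ESCs had 2, with 10 and 6 reads, and EpiSCs none. In the reverse direction, the *Lhx5* promoter contacted 3 fragments in the *Tbx3* gene body in WT ESCs only, with 7, 9, and 11 reads, of which the last 2 are fragments that the study counts as part of an ESC super-enhancer (SE), a dense cluster of enhancers. *Lhx5* itself stood at 0.00986 RPKM in WT ESCs, 0.0350 in scaled EpiSCs, and 0.0408 in *Nanog*-/- ESCs.

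**Figure D5:**
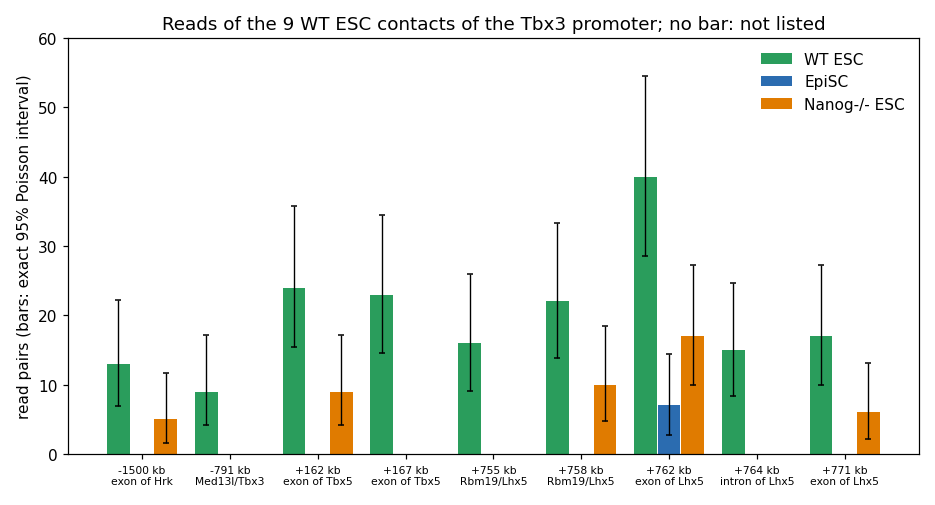
Reads (vertical axis, with exact 95% Poisson intervals) of the 9 WT ESC contacts of the Tbx3 promoter in WT ESCs (green), EpiSCs (blue), and Nanog-/- ESCs (orange), labelled with the distance from the promoter and the annotation of the partner. A missing bar means that the contact was not listed. The Lhx5 promoter fragment at 762 kb has 40, 7, and 17 reads and the only EpiSC bar.

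The remaining partners of *Tbx3* were other promoters, an unbaited fragment with a *Tbx5* exon, or fragments between genes. The promoter of *Tbx5*, its neighbour in the T-box cluster and a heart and forelimb factor, was contacted at 162 kb with 24 reads (score 10.9) in WT ESCs and 9 reads (5.72) in *Nanog*-/- ESCs, and an adjoining fragment with 23 reads in WT ESCs only. The farthest contact was with the promoter of *Hrk*, a proapoptotic BH3-only gene, at 1500 kb upstream, with 13 reads and a score of 22.03 in WT ESCs and 5 reads and 6.25 in *Nanog*-/- ESCs. *Tbx5* was at 0.0478 RPKM in WT ESCs and *Hrk* at 0.927. In EpiSCs, 2 fragments between *Med13l* and *Tbx3*, at 551 and 853 kb upstream, were listed with 7 reads each and were in no other list. Of all WT ESC contacts at distances like that of *Lhx5*, from 500 kb to 1 Mb, 24.6% were listed in EpiSCs and 13.9% in *Nanog*-/- ESCs, and for the members 1 of 6 and 3 of 6.

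The *Esrrb* promoter (chr12:86360119-86361246, which holds the sequence printed above) had contacts in all 3 states in the same pair of regions, upstream in and beside *Ift43*, at 187 to 278 kb, and downstream between *Esrrb* and *Vash1*, at 178 to 303 kb. *Ift43* encodes a component of intraflagellar transport. Of its contacts, 4 were in all 3 lists. The reads in WT ESCs, EpiSCs, and *Nanog*-/- ESCs were 13, 13, and 10 at 266 kb upstream, 18, 14, and 9 at 232 kb, and 17, 13, and 8 at 207 kb, all in introns of *Ift43*. The last was downstream, at 291 kb, with 20, 11, and 11 reads in a fragment baited for the small RNA gene *U6.466*. These 4 were picked for being in every list, and their intervals are wide. Another 4 of the 13 WT ESC contacts, with 13 to 25 reads, were not listed in EpiSCs.

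The strongest *Esrrb* contacts were less evenly shared. The highest score in WT ESCs was that with the promoter of *1700019E19Rik* (278 kb upstream, 7 reads, 10.58), which had 4 reads and 6.56 in EpiSCs and was not listed in *Nanog*-/- ESCs. That gene stood at 19.3 RPKM in WT ESCs and 52.2 in scaled EpiSCs. The most reads in WT ESCs, 25, joined *Esrrb* to the baited fragment of *AC102689.1* (chr12:86599990-86608621, 244 kb downstream, score 8.36), with 12 reads in *Nanog*-/- ESCs and no listing in EpiSCs. In EpiSCs the highest score, 8.3 with 16 reads, was at a fragment 253 kb downstream. From the other side, promoters contacted the body of *Esrrb* in 10 pairs (5, 3, and 2 in the same order of states), 8 of them from *AC102689.1*. The 1 fragment of a listed ESC SE among these was contacted in EpiSCs (25 reads, 7.1). No fragment contacted by the *Esrrb* promoter itself was part of a listed ESC SE.

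In *Nanog*-/- ESCs the *Esrrb* promoter also had 4 near contacts that the other lists did not hold, at 18.6, 13.5, and 10.6 kb upstream and 13.4 kb downstream in its own intron. They had 44, 52, 60, and 56 reads and scores of 5.2 to 6.85. The *Nr5a2* promoter likewise had 1 contact in *Nanog*-/- ESCs, 5.79 kb upstream with 77 reads (score 5.99), and *Tcfcp2l1* had contacts at 20.3 and 63.7 kb upstream, in exon-bearing fragments of *Clasp1*, with 17 and 9 reads. The list of *Nanog*-/- ESCs was shorter in reach as a whole, with a median distance of 74.1 kb over all pairs against 139 kb in WT ESCs and 141 kb in EpiSCs. Its part in these near contacts was not tested.

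The *Tcfcp2l1* promoter (chr1:118624377-118630226) contacted in all 3 lists the fragment at the 3′ side of its own gene, 55.3 kb downstream, with 20, 21, and 13 reads. This fragment holds a *Tcfcp2l1* exon and is itself baited, for *U1.168*. A further contact about 90 kb downstream was at fragments that touch, with 11 reads in WT ESCs at 89.7 kb and 15 in EpiSCs at 91.7 kb. The 1 contact of any member promoter with a listed ESC SE fragment was also here: chr1:119075243-119083455, 452 kb downstream and beyond *Gli2*, with 7 reads and a score of 8.78 in WT ESCs. In EpiSCs and *Nanog*-/- ESCs the listed partner was the next fragment, the short 166-base sequence printed above, with 6 reads (7.42) and 4 reads (5.08). It holds no exon, and 57.2% of its bases are G or C. Counted by fragment the SE contact was thus listed in WT ESCs only, whereas counted with touching fragments it was listed in every state. *Gli2*, a Hedgehog pathway effector whose start lies 21.6 kb from the SE fragment, had 29.8 RPKM in WT ESCs, 8.06 in scaled EpiSCs, and 5.19 in *Nanog*-/- ESCs.

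The *Nr5a2* promoter (chr1:136959986-136960563) had no pair of fragments listed in more than 1 state. Its single WT ESC contact lay 426 kb downstream between *Kif14* and *Zfp281* (7 reads, 6.97). In EpiSCs it had 5, on either side, at 99.6 and 263 kb upstream and at 195, 332, and 418 kb downstream, with 17, 10, 10, 6, and 10 reads. The highest score among them, 9.13, was at 418 kb, between the same genes as the WT ESC contact. The contact at 332 kb was with the promoter of *Zfp281*, a zinc finger factor used in both pluripotent states. *Zfp281* stood at 54.5 RPKM in WT ESCs and in EpiSCs at 38.4 after scaling or 72.5 as deposited, so its direction turned on the scaling. A listed ESC SE fragment in the *Nr5a2* gene body was contacted in EpiSCs by the promoter of *AC125186.2* (8 reads, 5.05). This bait is short, 578 bases, and holds 2 of 6 annotated starts and only part of the 250 bases searched above.

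The *Nr0b1* promoter (chrX:86188979-86193236) had contacts in the WT ESC list only. They lay 215 and 246 kb upstream between *5430427O19Rik* and *Samt3*, with 6 and 5 reads and scores of 6.46 and 5.45. Neither EpiSCs, in which the gene was listed at 0, nor *Nanog*-/- ESCs, in which it stood at 104% of WT ESCs, had a listed contact. Of the 2457 baits with 2 WT ESC contacts, 14.1% had none in both other lists, and of all baits with any WT ESC contact, 8.76%.

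The *Tcl1* promoter (chr12:105221730-105224030) had 3 contacts in each list, and these differed between ESCs and EpiSCs. In WT ESCs and *Nanog*-/- ESCs it contacted the promoter of *Tcl1b4*, a member of the same gene family 18.6 kb away, with 30 reads (20.2 to 42.8) and 16 reads. In the same lists it contacted the baited fragment of *Scarna13*, which holds a *Glrx5* exon, 184 kb downstream, with 7 and 6 reads. The last contact was with the *Bdkrb1* promoter 377 kb upstream in WT ESCs (5 reads) and with the *Clmn* promoter 357 kb downstream in *Nanog*-/- ESCs (5 reads, score 7.48). In EpiSCs all 3 partners were upstream, at 129, 203, and 206 kb in and beyond *Tunar*, with 9, 8, and 8 reads, and none was in another list. *Tcl1b4* was itself at 0.0262 RPKM in WT ESCs.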

How the data were processed

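For PCHi-C, the authors used HiCUP to map and filter reads (Bowtie 1.1.0 in the submitters' processing notes, GRCm38/mm10) scored pairs with CHiCAGO, and combined the replicates into 1 list per state. The deposited counts are read pairs per pair of HindIII fragments, and the deposited score is CHiCAGO's, with no listed score under 5. Where the lists gave a pair from either end, it entered as 1 contact with the larger count and the higher score. Any fragment with a gene name in a list was taken as baited, so a captured promoter without a listed contact in any state was not counted. Distances run between fragment midpoints, and annotations are those of GENCODE M21 (GRCm38). All 63 fragments of the 6 genes and their partners end in HindIII sites in GRCm38.

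The RPKM values were deposited as 1 median per state, per the file headers. Trim Galore, TopHat, and DESeq2 are in the submitters' processing notes, without versions, and the counting step is not given in the sources used here. The authors' columns of log2 fold changes and p-values were not used. The *Nanog*-/- column was identified from the labels by elimination. EpiSC values were divided by the median EpiSC to WT ESC ratio, differences were taken on log2(RPKM + 1), and genes at 1 RPKM or more in at least 1 state were kept (10728, among them all 6 members with values). A gene was called past 2-fold at a difference of 1. Depth is known only as the reads in the lists, 2177383, 1651422, and 1440356 in WT ESCs, EpiSCs, and *Nanog*-/- ESCs.

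Members and gene lists were chosen with earlier results of these data known. Text names all members, every contact with the highest score or most reads of a promoter in a list, the farthest, those in all 3 lists, and those with an SE fragment. The SE fragments are the 899 that the study lists for the previously defined ESC SEs. The larger sets of SEs that the study called itself in ESCs and EpiSCs were not used. The ChIP-seq samples were not analysed here. Steps were tested on simulated data. Promoter sequences of 5 of the 6 genes are from RefSeq (GRCm38.p6). Python 3.11.15, numpy 2.4.6, pandas 2.3.3, scipy 1.17.1, and matplotlib 3.10.9 were used.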

Additional observations from a re-analysis of the deposited data

How the results depend on the processing

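Of the first 25 alternatives, over 7 results, 20 left the result within its limits, a set fold for counts and the counting interval for shares. Some of the 20 could not have moved a result. Each gene has 1 bait, which holds an annotated start, and all 6 genes pass the filter. Leaving out the filter or requiring an annotated start was thus bound to give the same counts. All 6 genes were lower in EpiSCs with pseudocounts of 0.1 and 0.5 RPKM, without the filter, at 4-fold, and with EpiSC RPKM as deposited. In *Nanog*-/- ESCs the count of 1 (*Nr5a2*) became 0 at the 4-fold limit and stayed at 1 under the other alternatives, scaled *Nanog*-/- RPKM included. With a score of at least 7 in place of 5, the promoters had 14 contacts in the WT ESC list, 6 in that of EpiSCs, and 9 in that of *Nanog*-/- ESCs, since most listed contacts of these genes score between 5 and 7. Limiting contacts to 800 kb (30, 25, and 24) moved them little, and limiting them to baits with an annotated start (31, 26, and 26) could not move them. The share of WT ESC contacts also listed in *Nanog*-/- ESCs went from 41.9% to 61.3% when partners in touching fragments were taken as the same, and the EpiSC share ranged from 28.6% to 51.6%, within its counting interval. In alternatives chosen after seeing the data, EpiSC RPKM as deposited left 3 of 10 shared pluripotency genes lower in place of 6, and leaving out contacts within 20 kb took the *Nanog*-/- reads from 490 to 185. Depth limits single contacts: they can rest on as few as 4 reads, so a missing listing does not show loss. No replicate could be left out, because the deposited values are combined over replicates. No paired analysis was possible because the expression values are 1 median per state and come from no test.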

Other observations

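*Triml1* and *Triml2*, the neighbours of *Zfp42*, were at 69.6 and 185 RPKM in *Nanog*-/- ESCs, above their WT ESC levels of 52.6 and 112, and both were listed at 0 in EpiSCs. The promoter of *Gm11102* contacted the 3′ fragment of *Tcfcp2l1* in WT ESCs only (12 reads, score 6.37, 200.2 kb). The promoter of *Tcl1b4* contacted the fragment next to the *Tcl1* bait in *Nanog*-/- ESCs only (31 reads, score 5.4, 15.6 kb). No other promoter contacted the body of *Nr0b1* in any list.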
